A study of Mus musculus with 11 samples.

Results

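The myogenic regulators and the genes of developing muscle were followed in 11 *ex vivo* cell lines of the OvTrpMyc mouse, to ask whether any line held the RNA of muscle being formed in culture next to that of adult muscle fibers. The set was chosen by name and held 10 of the 28284 genes in the count table: *Pax7*, *Myf5*, *Myod1*, *Myog*, *Myf6*, *Myh3*, *Myh8*, *Myl4*, *Chrna1*, and *Chrng*. All 10 were found. Bulk RNA sequencing of polyadenylated RNA gave 1 library per line. The lines came from 7 mice, and 4 of the mice gave 2 lines each. The ovary group had 7 lines, named F318 ROV and LOV, F364 ROV and LOV, and ROV alone for F319, F326, and F339. The uterus group had the F319 and F333 lines, and the tumor group had F326 splenic and F361 peritoneal. All of them carried the genotype Ovgp1-Trp53-R270H-Myc, in which mutant p53 and MYC are placed under the *Ovgp1* promoter, known for its activity in non-ciliated cells of the fallopian tube, and all were grown in RPMI 1640 without treatment. By the study's methods, the F361 line no longer expressed the mutant copy of p53. Cells without the transgene were not part of the comparison, each line is a single culture, and lines of 1 mouse are not independent animals.

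Skeletal muscle is built by myoblasts that leave the cell cycle, fuse, and assemble sarcomeres. PAX7 marks the stem cells, MYF5 and MYOD1 commit cells to the lineage, MYOG drives terminal differentiation, and MYF6 (MRF4) acts late and remains present in mature fibers. MYH3 and MYH8 are the embryonic and perinatal myosin heavy chains, which adult fast myosins replace after birth, and MYL4 is an embryonic myosin light chain that the heart atria also use. CHRNA1 is a subunit common to all muscle acetylcholine receptors, CHRNG belongs to the fetal receptor, and CHRNE takes its place at the adult synapse. Regulators of the MYOD family bind the E-box, CANNTG, and CAGCTG is a form of it that they favor.

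The sequences before the start sites of *Myog* and of the receptor subunit genes are shown because these genes are textbook targets of E-box binding regulators. Of them, *Myog*, *Chrng*, and *Chrne* separate differentiating from adult muscle, while *Chrna1* is common to both. Each line gives the 250 bases before the RefSeq start site in the direction of transcription on GRCm38.p6, and capitals mark every CANNTG. *Myog* lies at chr1:134289754-134290003 on the plus strand, *Chrna1* at chr2:73580339-73580588 on the minus strand, *Chrng* at chr1:87205561-87205810 on the plus strand, and *Chrne* at chr11:70619195-70619444 on the minus strand.
Myog: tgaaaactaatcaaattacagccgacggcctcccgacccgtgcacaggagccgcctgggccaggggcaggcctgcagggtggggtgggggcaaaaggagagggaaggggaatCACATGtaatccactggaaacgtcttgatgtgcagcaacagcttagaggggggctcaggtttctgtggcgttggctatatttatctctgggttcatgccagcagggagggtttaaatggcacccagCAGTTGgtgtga
Chrna1: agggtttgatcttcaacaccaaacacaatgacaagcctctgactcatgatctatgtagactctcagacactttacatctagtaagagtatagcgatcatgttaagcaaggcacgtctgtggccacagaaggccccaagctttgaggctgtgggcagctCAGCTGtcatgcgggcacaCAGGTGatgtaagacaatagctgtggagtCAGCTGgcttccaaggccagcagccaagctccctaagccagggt
Chrng: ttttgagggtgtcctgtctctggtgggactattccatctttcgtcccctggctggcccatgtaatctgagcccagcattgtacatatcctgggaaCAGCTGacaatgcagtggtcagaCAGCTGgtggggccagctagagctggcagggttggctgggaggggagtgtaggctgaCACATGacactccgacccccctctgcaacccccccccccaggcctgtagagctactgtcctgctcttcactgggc
Chrne: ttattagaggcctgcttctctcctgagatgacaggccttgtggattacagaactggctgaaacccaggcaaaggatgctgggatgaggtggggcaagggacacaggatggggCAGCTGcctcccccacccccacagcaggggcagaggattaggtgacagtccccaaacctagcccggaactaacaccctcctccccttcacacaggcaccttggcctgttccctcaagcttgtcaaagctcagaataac
RefSeq promoters were found for 8 of the 10 genes. The 250 bases held a CANNTG in 5 of these 8, against 66.2% of 32851 promoters of the same length. CAGCTG was found in 2 of the 8, *Chrna1* and *Chrng*, which held 2 copies each, against 13.0% of all promoters with any copy and 1.26% with 2 or more. *Chrne*, the adult counterpart of *Chrng*, held 1 CAGCTG. A match describes the letters and is not a binding site. RefSeq and GENCODE M21 starts differ for 3 of the 4 genes shown, and the printed bases of *Chrng* lie within its GENCODE gene span, 1 of them in an exon, while 15 bases of *Myog* and 22 of *Chrne* lie in GENCODE exons.

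Between 13580525 and 27044598 counts were deposited per library. Levels are given as CPM, the count scaled to a total of 1000000 per library, and a gene was taken as present from 3 counts, which equaled 0.111 to 0.221 CPM. Since mates of a read pair appear to have been counted separately, intervals were computed on halved counts, and on that basis a count of 0 allows a higher level than 3 counts would give. The libraries fell into a pair of sets by their number in the labels. An adult fiber list, of which 39 of 40 genes were found, held 7.65 to 14.9% of the counts in libraries 1 to 7, called fiber-rich here. It held 0.166 to 1.30% in libraries 8 to 11, called fiber-poor, which were F318 LOV, F339 ROV, F319 uterus, and F333 uterus. The summed level of 4 Y-linked genes was 128 to 174 CPM in the fiber-rich set against 1.75 to 19.2 CPM in the other, and every mouse but F361 gave a line from an ovary or a uterus. The summed level of 7 smooth muscle genes was lower in the fiber-rich libraries, at 828 to 4004 CPM against 4631 to 6884 CPM, although *Synpo2* (138 to 911 against 13.6 to 47.0 CPM) and *Myh11* (13.0 to 158 against 5.34 to 11.6 CPM) were higher there. The summed level of 7 heart genes, 2 of which (*Myl2* and *Myl4*) skeletal muscle also uses, was 17.4 to 74.1 CPM in the fiber-rich and 2.66 to 11.3 CPM in the fiber-poor libraries. *Myl2* reached 41.5 CPM and *Myh6* 16.7 CPM, whereas the atrial genes *Nppa* and *Myl7* reached at most 0.40 and 0.18 CPM in any line. The part of heart genes in the results was not tested. The labels give the numbers without saying what they stand for. Fewer muscle cells and less muscle RNA per cell cannot be told apart in bulk samples. Whether the muscle RNA came from cells of the lines was not tested, nor was the source of the Y-linked RNA.

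The summed level of the 10 genes was 378 to 624 CPM in the fiber-rich libraries against 7.59 to 45.1 CPM in the fiber-poor ones, a ratio of medians of 13.0. The adult fiber list had a ratio of 16.0, and the Y-linked genes 14.5. At least 3 counts were reached in 67 of 70 pairs of gene and line in the first set and in 28 of 40 in the second, or 95 of 110 in all. For 8 of the 10 genes, every fiber-rich library lay above every fiber-poor one. The exceptions were *Pax7* and *Chrng*. Of 21616 genes with a mean of at least 1 count, 13.4% were separated in this direction. The split was known from earlier results on muscle genes, so it is described without a test, and its cause was not tested.

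**Figure D1:**
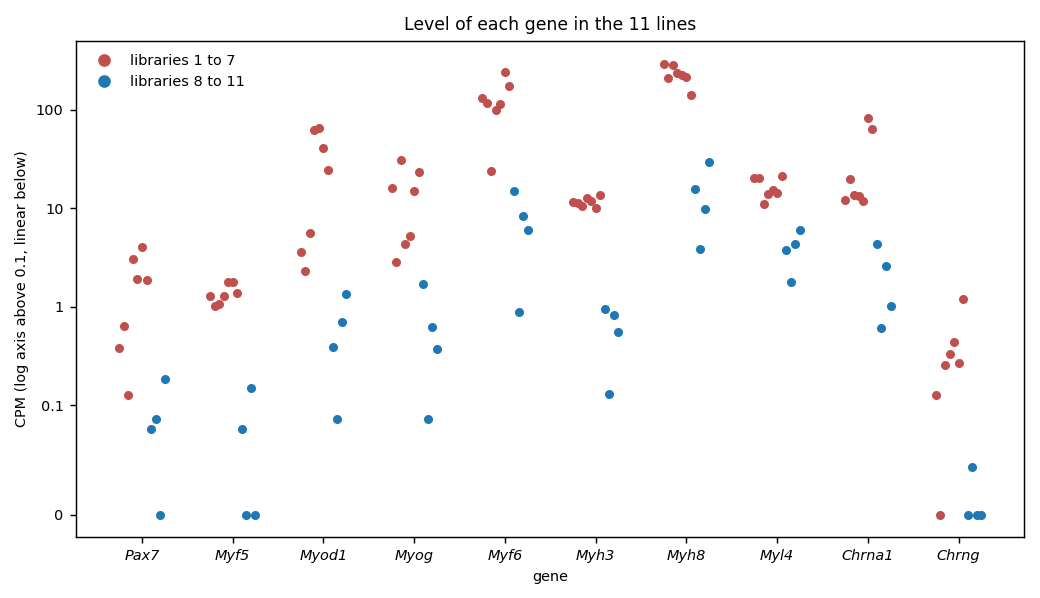
Level of each of the 10 genes in CPM (vertical axis, logarithmic above 0.1 CPM and linear below) in the 11 lines, each point 1 library. Libraries 1 to 7 (red) lay above libraries 8 to 11 (blue) for every gene but *Pax7* and *Chrng*, and *Myod1*, *Myog*, and *Myf6* were spread most widely within the red points among the genes with at least 3 counts in all of them.

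Levels per length, in CPM per kb of exon, differed widely among the 10 genes. The median over the fiber-rich libraries was 92.8 CPM per kb for *Myf6*, 19.0 for *Myh8*, 13.1 for *Myod1*, 10.1 for *Myog*, 3.27 for *Myl4*, 3.07 for *Chrna1*, and 1.89 for *Myh3*. It was 0.61 for *Myf5*, 0.32 for *Pax7*, and 0.065 for *Chrng*. On the same scale, the adult fast myosin *Myh4* stood at 4602 and *Chrne* at 5.57. The highest of the regulators was thus the one that persists in mature fibers, and the lowest of the 10 genes was the fetal receptor subunit.

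*Pax7*, the stem cell gene, lies on chromosome 4 of GRCm38 from 139737062 to 139833528. It had 90 counts in F319 ROV (4.03 CPM), 46 in F326 ROV (3.07 CPM), 33 in F318 ROV (1.88 CPM), and 26 in F361 (1.91 CPM). In the F326 splenic line it had 10 counts, in F364 ROV 6, in F333 uterus 4, in F364 LOV, F339 ROV, and F318 LOV 2 each, and in F319 uterus 0, for which the upper Wilson bound was 0.284 CPM. It therefore passed 3 counts in 7 lines, and the 4 lines with the most *Pax7* were the 4 with *Myod1* above 20 CPM.

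*Myf5*, an early commitment factor, lies on chromosome 10 from 107482908 to 107486134. It was low but even in the fiber-rich libraries, at 1.01 to 1.79 CPM with a median of 1.27. In the fiber-poor set it had 4 counts in F319 uterus, 2 in F339 ROV, and 0 in F318 LOV and F333 uterus. Its highest level, in F319 ROV, was less than that of *Pax7* in the same line.

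*Myod1* (chromosome 7, from 46376474 to 46379099) fell into high and low levels among the fiber-rich lines, with a gap between them. F361 had 65.0 CPM, with a Wilson interval at 95% confidence of 59.2 to 71.4. The other high lines were F326 ROV at 62.6 CPM (57.2 to 68.6), F319 ROV at 40.9 (37.3 to 44.9), and F318 ROV at 24.3 (21.3 to 27.8). The low ones had 5.63 CPM in F364 LOV (4.20 to 7.55), 3.61 in F364 ROV (2.51 to 5.21), and 2.28 in the F326 splenic line (1.44 to 3.60). The intervals of F361 and F326 ROV overlapped, and so did those of F364 ROV with both of its low neighbors. The fiber-poor lines lay below all of these, with 1.35 CPM in F333 uterus, 0.703 in F319 uterus, 0.392 in F339 ROV, and 2 counts in F318 LOV. The intervals cover counting error only.

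The lines of mouse F326 differed in *Myod1*, while those of F364 had overlapping intervals. F326 ROV exceeded the splenic line of the same animal by 27.5-fold, and *Pax7* differed 4.85-fold in the same direction (3.07 against 0.633 CPM), while *Myf5* (1.27 against 1.01 CPM), *Myh3* (12.6 against 11.4 CPM), *Myh8* (236 against 210 CPM), and *Myf6* (97.9 against 117 CPM) were close. The adult fiber list held 14.3% and 11.8% of the counts of these libraries, so the difference in *Myod1* was not accompanied by one of like size in fiber RNA. No replicate of either line exists to set it against.

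*Myog*, the differentiation factor, lies on chromosome 1 from 134289989 to 134292548 and followed another order. It was at 30.4 CPM in F364 LOV (26.8 to 34.5), 23.2 in F318 ROV (20.2 to 26.6), 15.9 in F364 ROV (13.4 to 19.0), and 15.0 in F319 ROV (12.9 to 17.5). It was lower in F361 at 5.23 CPM (3.77 to 7.25), in F326 ROV at 4.34 (3.08 to 6.11), and in the F326 splenic line at 2.85 (1.89 to 4.29). The pair of lines with the most *Myod1*, F361 and F326 ROV, thus had less *Myog* than every other fiber-rich line but the splenic one, and the line with the most *Myog* was among those with low *Myod1*. In the fiber-poor set, *Myog* was at 1.69 CPM in F339 ROV, 0.629 in F319 uterus, 0.371 in F333 uterus, and 2 counts in F318 LOV.

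*Myf6*, the regulator of mature fibers (chromosome 10, from 107492853 to 107494737), was at 242 CPM in F319 ROV, 174 in F318 ROV, 130 in F364 ROV, 117 in the F326 splenic line, 113 in F361, 97.9 in F326 ROV, and 24.0 in F364 LOV. The fiber-poor lines had 15.0 CPM in F339 ROV, 0.873 in F318 LOV, 8.25 in F319 uterus, and 5.99 in F333 uterus. F364 LOV was the lowest of the fiber-rich lines, with 5.40-fold less than F364 ROV from the same mouse. The adult fiber list held 14.0% and 14.2% of the counts of these libraries.

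Of the counts on the MYOD family (*Myf5*, *Myod1*, *Myog*, and *Myf6*), *Myf6* held over 70% in 8 of 11 lines. The others were F361 with 61.0%, F326 ROV with 58.9%, and F364 LOV with 39.3%. *Myod1* held 35.2% and 37.7% in the first pair, and *Myog* held 49.7% in F364 LOV. These are shares of counts within a library and are not adjusted for gene length.

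*Myh8*, the perinatal heavy chain, lies on chromosome 11 from 67277124 to 67308634. It had 287 CPM in F364 ROV, 281 in F364 LOV, 236 in F326 ROV, 224 in F361, 214 in F319 ROV, 210 in the F326 splenic line, and 140 in F318 ROV. It had 29.7 CPM in F333 uterus, 15.8 in F339 ROV, 9.87 in F319 uterus, and 3.88 in F318 LOV. Over the 11 lines the level thus varied 73.9-fold. Set against the counts on the adult fiber list of the same library, it varied only 1.66-fold, from 141 to 234 per 100000 fiber counts, and against *Myh4* from 0.742 to 1.25% of its counts. Its counts thus stayed a small and nearly constant fraction of those of the adult fiber genes.

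*Myh3*, the embryonic heavy chain (chromosome 11, from 67078300 to 67102291), lay between 10.1 and 13.5 CPM in the fiber-rich lines. In the others it was at 0.941 CPM in F339 ROV, 0.813 in F319 uterus, 0.557 in F333 uterus, and 0.131 in F318 LOV. Per 100000 fiber counts, F318 ROV was highest at 17.7, the F319 uterus line followed at 11.6, F333 uterus was lowest at 4.29, and the median was 8.08. Exact words of 100 bases shared with another heavy chain made up 1.13% of those in the *Myh3* transcripts and 5.15% in the *Myh8* transcripts, and how many of the counts came from reads of other heavy chains was not measured. The adult chains were far more abundant, with 30631 CPM of *Myh4* against 287 CPM of *Myh8* in F364 ROV, and the part of their reads in the *Myh8* counts, and so in the values of *Myh8* relative to fiber RNA, was not tested.

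Together, *Myh3* and *Myh8* held between 0.481% (0.421 to 0.550%) of the counts on 10 sarcomeric heavy chain genes in F339 ROV and 0.877% (0.787 to 0.977%) in F333 uterus, with a median of 0.634%. The fiber-rich lines lay between 0.519 and 0.699%, and the fiber-poor ones stood on both sides of them, with 0.486% in F319 uterus and 0.871% (0.654 to 1.16%) in F318 LOV. F318 ROV, at 0.634%, was the line at the median. Counted per kb of exon the median share was 0.350%.

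**Figure D2:**
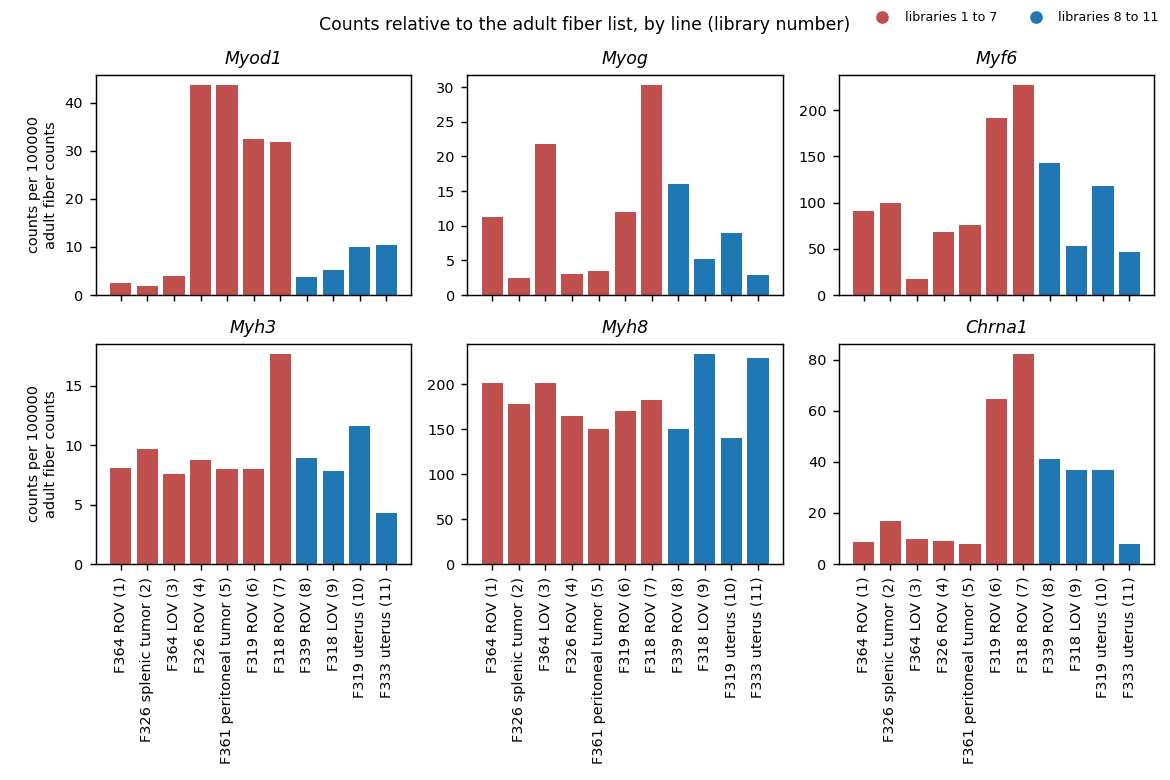
Counts of 6 genes per 100000 counts on the adult fiber list (vertical axes, from 0) in each line, with the library number in parentheses (red, libraries 1 to 7; blue, libraries 8 to 11). *Myh8* was nearly level at 141 to 234, whereas *Myod1* ranged from 1.94 to 43.7, *Myog* from 2.42 to 30.3, *Myf6* from 17.2 to 227, and *Chrna1* from 7.87 to 82.2.

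Relative to fiber RNA the 10 genes varied unequally. Per 100000 fiber counts, *Myod1* spanned 22.6-fold, *Myl4* 13.6-fold, *Myf6* 13.2-fold, *Myog* 12.5-fold, and *Chrna1* 10.4-fold, against 4.12-fold for *Myh3* and 1.66-fold for *Myh8*. Among the regulators *Myf5* varied least, 2.74-fold over the 8 lines in which it had at least 3 counts. F318 ROV had the highest value of *Myog* (30.3), *Myf6* (227), *Myh3* (17.7), and *Chrna1* (82.2). The fiber list, which is the denominator, held 7.65% of its counts, the least among the fiber-rich lines, and a smaller denominator raises these values. In CPM the same line led the 11 lines for 3 of the 10 genes, *Myh3*, *Myl4*, and *Chrng*, but its counting interval overlapped that of another line for each. For *Myh3* it was 11.3 to 16.2 CPM, against 10.3 to 15.4 in F326 ROV. For *Myl4* it was 18.2 to 24.3, against 17.4 to 23.7 in the F326 splenic line. For *Chrng* it was 0.661 to 2.18, against 0.150 to 1.30 in F361.

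*Myl4* (chromosome 11, from 104550663 to 104595753) had a ratio of medians of 3.77 between the sets, the lowest of the 9 genes for which it could be formed. Its level was 11.01 to 21.1 CPM in fiber-rich and 1.79 to 5.99 CPM in fiber-poor lines. Per 100000 fiber counts the order turned over, with 7.88 to 27.5 in the former and 35.5 to 108 in the latter, where F318 LOV, the line with the least fiber RNA, was highest.

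*Chrna1*, the common receptor subunit (chromosome 2, from 73563215 to 73580338), was highest in F319 ROV at 81.3 CPM and F318 ROV at 62.9 CPM. The remaining fiber-rich lines had 19.9 CPM in the F326 splenic line, 13.5 in F364 LOV, 13.2 in F326 ROV, 12.0 in F364 ROV, and 11.9 in F361. It had 4.31 CPM in F339 ROV, 2.59 in F319 uterus, 1.02 in F333 uterus, and 0.611 in F318 LOV. The pair of lines with high *Chrna1* was also the pair with the most *Myf6*.

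*Chrng*, the fetal receptor subunit (chromosome 1, from 87204657 to 87212694), had 21 counts in F318 ROV, or 1.20 CPM. It had 6 counts in F319 ROV and in F361, 5 in F326 ROV, 4 in F364 LOV, 2 in F364 ROV, 1 in F318 LOV, and 0 in the F326 splenic, F339 ROV, and both uterus lines. *Chrne*, the adult subunit, had 91 to 422 counts in the fiber-rich lines and 4 to 10 in the others. The share of *Chrng* in the counts on the pair was 11.3% in F318 ROV (6.34 to 19.3%) and 0 to 2.68% in the other 6 fiber-rich lines. Its median was 1.54% over the 9 lines with at least 10 counts on the pair, of which both uterus lines had only 10, and 1.79% over the 7 fiber-rich lines. Counted per kb of exon the share was 4.91% in F318 ROV and the median over the 9 lines 0.63%. The interval of F318 ROV overlapped those of 4 of the other 6 lines and lay above those of F326 ROV and F361. In the remaining lines the pair had 10 counts or fewer, and the fetal share was not measurable at this depth.

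**Figure D3:**
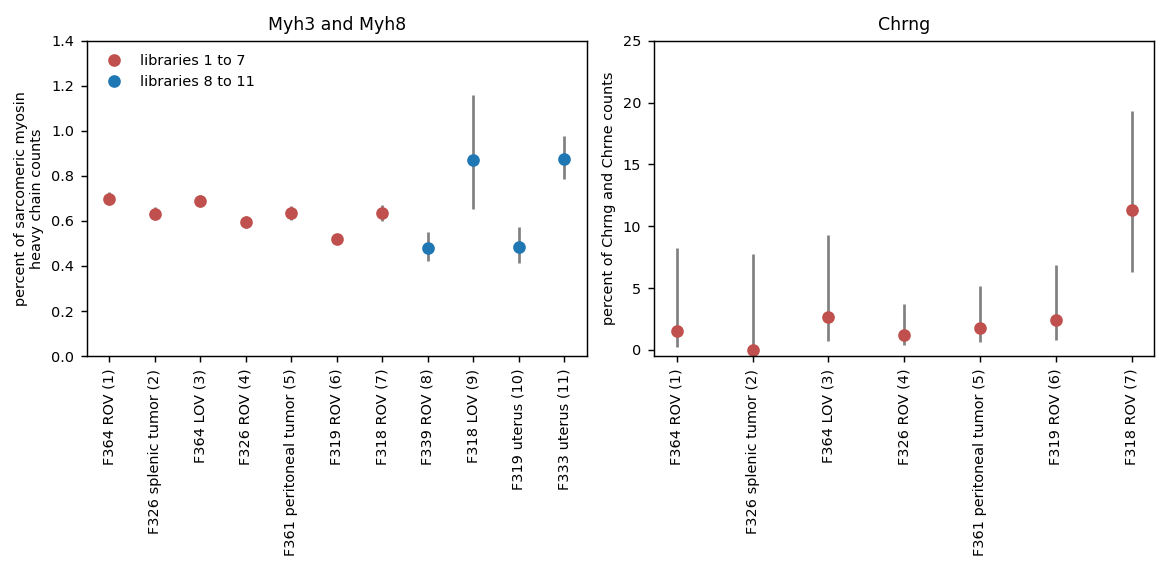
Left, *Myh3* and *Myh8* as a percentage of the counts on sarcomeric heavy chain genes in the 11 lines. Right, *Chrng* as a percentage of *Chrng* and *Chrne* counts in the 7 lines with at least 30 counts on the pair. Bars are 95% Wilson intervals for counting error. The myosin share stayed between 0.481 and 0.877%, and the *Chrng* share was 11.3% in F318 ROV against at most 2.68% in the other lines.

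F318 ROV was also the highest line for 2 fusion genes. They were singled out from a list of fusion and nascent myotube genes after their values were seen. *Mymk*, listed as *Tmem8c*, and *Mymx*, listed as *Gm7325*, encode the membrane proteins by which myoblasts fuse, and are low in uninjured adult fibers. *Gm7325* had 70 counts in F318 ROV (3.996 CPM, 2.87 to 5.56), 2 each in F319 ROV and F361, and 0 in the other 8 lines. *Tmem8c* had 16 counts in F318 ROV (0.913 CPM), 4 in F364 ROV and in F326 ROV, 2 in F361, and 0 in the other 7 lines. F318 LOV, from the same mouse, had no count of either, and its fiber list held 0.166% of counts against 7.65%. *Myog* was the next highest in F318 ROV after F364 LOV, yet F364 LOV had no count of either fusion gene.

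**Figure D4:**
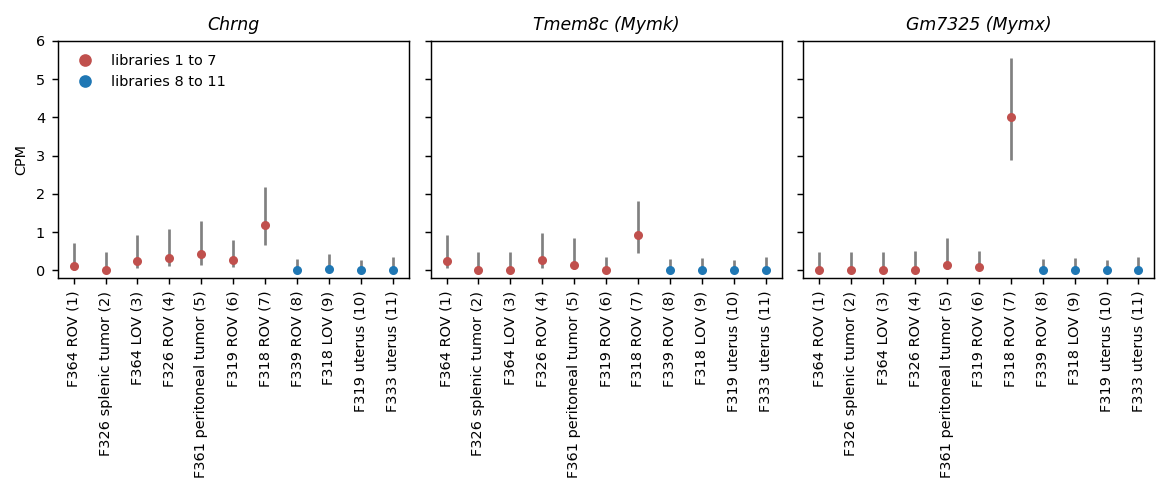
Level in CPM (vertical axis, shared) of *Chrng*, *Tmem8c* (*Mymk*), and *Gm7325* (*Mymx*) in the 11 lines, with 95% Wilson intervals for counting error. F318 ROV held the highest point in each panel, at 1.20, 0.913, and 3.996 CPM, and the counts behind the other points were at most 6.

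The wider lists placed these genes among others of the pathway. Of 14 fusion and nascent myotube genes, all found, 7 were higher in every fiber-rich line than in any fiber-poor one, and the ratio of medians of their summed CPM was 13.2, the bulk of it desmin (*Des*), an intermediate filament that adult fibers keep, at 4340 to 8703 CPM in the fiber-rich lines. *Actc1*, the actin of embryonic and heart muscle, reached 40.1 CPM in F364 LOV and was at most 21.1 CPM elsewhere, with 2.40 CPM in F318 ROV. Among the fiber-rich lines, F318 ROV was lowest in *Myl6b* (5.42 CPM) and *Smyd1* (163 CPM) and highest in *Tnnt2* (24.5 CPM), all of the same list. Of 13 neuromuscular junction genes, 8 were separated in this way and 1 in the opposite direction, in which 20% of all genes were separated. Of 16 other early regulators, 5 were above and 3 below, and their summed level was alike in the 2 sets at a ratio of 0.918. Of 11 stem cell and myoblast surface genes found of 12, 4 were above and none below, with a ratio of 1.32. For the adult fiber list the count was 33 of 39, against the 13.4% of all genes.

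The pattern of each gene over the 11 lines was set beside that of 15992 others by Pearson's r of log2(CPM + 1), a description in which all points share the split of the libraries. *Myh8* was nearest to *Fbxo40* (0.996), *Mybpc2* (0.996), and *Myh4* (0.996), the last an adult fast myosin. Nearest to *Myh3* were *Rilpl1* (0.994), *Kcnc4* (0.993), and *Pdk2* (0.991). *Myog* was nearest to *Csf3r* (0.977) and *Musk* (0.961), the kinase that gathers receptors at the synapse. For *Myod1* they were *Gja5* (0.991), *Zfp366* (0.980), and *Sema6a* (0.979), for *Myf6* *Atp9a* (0.975), and for *Chrna1* *Pde9a* (0.974). The r with the summed fiber list was 0.993 for *Myh8*, 0.961 for *Myh3*, 0.939 for *Myl4*, 0.921 for *Myf5*, 0.905 for *Myf6*, 0.800 for *Myog*, 0.798 for *Chrna1*, 0.754 for *Myod1*, and 0.624 for *Pax7*.

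By tissue of origin, the comparison of the 2 uterus lines with the 7 ovary lines asked whether the site a line came from set its muscle genes. In F319 and F333 uterus, *Myog* was at 0.629 and 0.371 CPM, against 0.0873 to 30.4 CPM (median 15.0) in the ovary lines, and *Myh8* at 9.87 and 29.7 CPM against 3.88 to 287 CPM (median 214). In both cases the uterus values lay within the range of the ovary lines. edgeR's quasi-likelihood test with Benjamini-Hochberg adjustment called 0% of 17446 genes at an adjusted p under 0.05, and 0 of the 9 genes of the set that passed its filter on low counts, *Chrng* being removed. All 9 were lower in the uterus lines, with a median log2 fold change of -4.02 against -0.05 over all genes tested. *Myog* had a log2 fold change of -4.97 ± 1.92 (SE), *Myod1* of -4.50 ± 2.32, and *Myh8* of -3.35 ± 1.60, with edgeR adjusted p from 0.359 to 0.400 over the 9. At an unadjusted p under 0.05, edgeR counted 4 of the 9 (*Myog*, *Myh3*, *Chrna1*, and *Myf6*) against 13.2% of all genes. This count rested on single lines, as did that over all genes. It was 8 without F318 LOV, beside 4828 of 17048 genes, and 7 without F339 ROV, beside 3989 of 17056. It was 3 without F364 LOV, 2 without F364 ROV, F326 ROV, or F319 ROV, and 1 without F318 ROV, beside 1452 to 1677 genes of 16935 to 17339. Without F319 uterus or F333 uterus, 1 uterus line remained, and the log2 fold change of *Myog* was -5.26 or -4.71. With mouse as a block the count was 1 of 9, beside 1501 of 17446 genes. DESeq2 called 5 of the 10 lower, *Myog* (adjusted p = 0.00964), *Chrna1* (0.0239), *Myh3* (0.0257), *Myf6* (0.0307), and *Myod1* (0.0492), where it called 7.26% of genes. Both uterus lines were in libraries 8 to 11 and 5 of the 7 ovary lines in libraries 1 to 7, so tissue and library set cannot be told apart over the lines as a whole. Within libraries 8 to 11, the edgeR log2 fold changes were 2.11 for *Myod1*, 1.08 for *Myh8*, 0.94 for *Myl4*, 0.36 for *Myh3*, -0.14 for *Myf6*, -0.46 for *Chrna1*, and -0.81 for *Myog*, each with an adjusted p of 0.9998, so the direction of 4 of these 7 turned.

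The 2 tumor lines were set against the 7 ovary lines in the same way. The tumor lines differed from each other 28.5-fold in *Myod1*, at 2.28 CPM in the splenic and 65.0 CPM in the peritoneal line, while *Myog* was at 2.85 and 5.23 CPM. edgeR called 0% of 16768 genes and 0 of the 9 genes tested, with adjusted p from 0.677 to 0.980. Of the 9, 7 were higher and 2, *Myog* and *Chrna1*, lower in the tumor lines, none with an unadjusted p under 0.05, against 8.18% of all genes, and the median log2 fold change was 0.48 against -0.01 over all genes tested. With mouse as a block, which sets the F326 lines against each other, 3 were higher and 6 lower, and within libraries 1 to 7, 5 were higher and 4 lower. *Myog* was lower in each of these fits, with a log2 fold change of -2.01 within libraries 1 to 7 (edgeR unadjusted p = 0.0232, adjusted p = 0.452). DESeq2 called none of the 9 to which it gave an adjusted p, where it called 1.81% of genes. Each tumor site had 1 line, so no site was tested on its own.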

How the data were processed

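Bulk RNA sequencing of 11 lines was analysed, grouped by their titles, and the library numbers stand in the sample descriptions. The deposited values are raw counts per gene in whole numbers, which the authors made with featureCounts after alignment of paired reads by STAR to GRCm38 (Ensembl 86 annotation) and removal of duplicates by SAMtools RmDup. Tool versions and the strand setting of the counting are not given in the sources used here. Between 69.4% and 76.5% of counts from 1 to 50 were even, so mates appear to be counted separately, and Wilson intervals at 95% confidence were computed on halved counts. Intervals and the floor of 3 counts cover counting error only.

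CPM used the deposited totals. Exon lengths came from GENCODE M21, and promoters from RefSeq on GRCm38.p6, with none in the table used for *Myod1* and *Myf6*. Counts of *Myh3* and *Myh8* can share reads with other heavy chains. The members, lists, and library split were chosen with earlier results of these data known. Genes named in the text were the 10 members, the highest, lowest, and exceptional genes of the lists, and the 3 most alike by Pearson's r over genes with a mean of at least 10 counts. *Chrne*, *Tmem8c*, and *Gm7325* were singled out from the lists after their values were seen. The tests were edgeR quasi-likelihood fits with TMM and filterByExpr, over all genes, with a Benjamini-Hochberg adjusted p under 0.05, and p-values measure the spread between lines, some of which share a mouse. The fitting steps were checked on simulated counts that had no library split, so the check says nothing of power or error in these data. Alternatives were DESeq2, no filter, mouse as a block, library subsets, each line left out, other floors, lengths, denominators, and totals. Python 3.11.15 with scipy 1.17.1, pandas 2.3.3, numpy 2.4.6, and matplotlib 3.10.9 was used, and edgeR 4.0.16 and DESeq2 1.42.0 were run in R 4.3.3. Mutant allele reads and proteins were not analysed here.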

Additional observations from a re-analysis of the deposited data

Results flagged for a closer look

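In the 7 ovary lines, the gap between the highest line and its nearest neighbor, divided by the range, was set against Dixon's 95% critical value of 0.568 for 15 measures. For normally distributed values, with either end tested, chance flags about 1 in 20 such groups. That rate need not hold here, since the ovary lines mix fiber-rich and fiber-poor libraries and several genes had few counts. Of the 10 genes of the set, *Chrng*, the fetal receptor subunit, was past it. It was at 1.20 CPM in F318 ROV, with 0.334 CPM in the next line. *Tmem8c*, *Gm7325*, and *Chrne* were also past it, but were measured this way because their values had been seen, so their number says nothing about chance. *Tmem8c* was at 0.913 CPM in F318 ROV, with 0.267 CPM in the next, and *Gm7325* at 3.996 CPM, with 0.0896 CPM in the next. *Chrng*, *Tmem8c*, and *Gm7325* had at most 6 counts in any other ovary line. *Chrne*, the adult receptor subunit, was at 28.2 CPM in F326 ROV, with 10.9 CPM in the next line, and the F361 tumor line, which lay outside this group, had 24.2 CPM.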

How the results depend on the processing

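Against the 0 calls of edgeR, DESeq2 called 1315 genes in uterus against ovary and 266 in tumor against ovary, and edgeR without a filter on low counts called 2 in the former. Leaving out each line gave 0 to 1 calls in the former, the 1 call arising without F333 uterus, and 0 in the latter. Keeping to libraries 8 to 11 turned the log2 fold changes in the uterus lines to 2.11 for *Myod1*, 0.36 for *Myh3*, 1.08 for *Myh8*, and 0.94 for *Myl4*, and the cause was not tested. In tumor against ovary, *Myod1* had 0.97 in edgeR, -4.72 with mouse as a block, and -2.97 to 1.91 with each line left out, the lowest without F361. The median share of *Myh3* and *Myh8* was 0.350% per kb of exon length, which divides *Myh8* by a longer exon model. The ratio of medians of the summed CPM was 16.5 with TMM library sizes, 14.8 with totals without the fiber list, 15.4 without *Chrna1* and *Myl4*, 12.7 without *Myh8* (chosen after seeing the data), and 10.7 to 16.5 with each line left out. The labels give no replicate numbers, so the paired analysis used mouse as the block (F319 in uterus against ovary, F326 in tumor against ovary), and it changed no call.

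The fetal share of the receptor pair could not be measured in fiber-poor lines, where 10 or fewer counts lay on *Chrng* and *Chrne* together. Each line had 1 library, so differences between single lines have counting intervals but no replicate error.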

Other observations

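F326 ROV and F361 peritoneal tumor, the lines with the most *Myod1*, were alike in several genes of the lists although they came from different mice. *Trim63*, the muscle ubiquitin ligase that rises in wasting fibers, was at 261 CPM in F326 ROV and 323 CPM in F361, against 1231 CPM in F319 ROV, 1778 in F318 ROV, 2447 in F364 ROV, 2585 in the F326 splenic line, and 4184 in F364 LOV. *Casq1*, the calcium store protein of fast fibers, was at 2103 and 2236 CPM in the same pair of lines, against 127 to 675 CPM in the other fiber-rich lines. *Ache*, the acetylcholinesterase of the synapse, was at 71.2 and 53.2 CPM, against 9.11 to 20.8 CPM. *Mstn*, the secreted inhibitor of muscle growth, was at 33.7 and 33.4 CPM, near the 37.4 CPM of F319 ROV, and highest in F364 LOV at 188 CPM. The pair differed in other genes of the lists, such as *Sdc4* (182 and 28.1 CPM), *Erbb3* (43.9 and 9.06 CPM), and *Dag1* (349 and 170 CPM). All of these genes were chosen after their values were seen, and no test was made.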
